A study of Mus musculus with 9 samples.

Results

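The genes described here are 40 genes of glucose use and of the response to low oxygen: glucose and lactate transporters, the enzymes of glycolysis, enzymes and regulators that set the fate of pyruvate, and sensors, factors and targets of the hypoxia inducible factor (HIF) pathway. They were picked by gene name, and all 40 were found among the 38940 genes of the expression table. The RNA came from mouse embryonic stem cells, a cell line of the early embryo that can give rise to all tissues, in 3 groups of 3 libraries. Yap/Taz double KO cells had both Yap and Taz deleted (Yap ∆/∆ Taz ∆/∆), Taz KO cells had Taz deleted with Yap still floxed (Yap f/f Taz ∆/∆), and control cells carried floxed alleles of both genes (Yap f/f Taz f/f). Groups were taken from titles and descriptions, since the genotype entry of double KO libraries repeats that of Taz KO. The labels describe 1 culture regime for every group: N2B27 medium on fibronectin with Lif at 4 ng/ml, the MEK inhibitor PD0325901 at 0.4 µM and the GSK3 inhibitor CHIR99021 at 3 µM. Cre-ERT2 was carried on a piggyBac transposon under the CAG promoter, and recombination was triggered by 500 nM 4-OHT, an active tamoxifen metabolite. Whether control cells were given 4-OHT, whether a group is 1 clone and whether replicates were separate cultures is not stated in the labels.

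Glycolysis splits glucose into pyruvate, first spending ATP in its preparatory steps and then regaining more in its payoff steps. Pyruvate is either turned into lactate, which leaves the cell through monocarboxylate transporters, or enters mitochondria, where the pyruvate dehydrogenase complex feeds it to the citric acid cycle. HIF factors are transcription factors whose alpha subunits are marked for destruction by oxygen-dependent prolyl hydroxylases; in low oxygen they persist and raise many glycolytic genes, so both gene sets often move as one programme. Mouse embryonic stem cells are known for active glycolysis. YAP and TAZ are co-activators of the Hippo pathway that work through TEAD transcription factors.

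Levels are given in FPKM, fragments per kilobase of gene scaled for depth, so they can be set side by side between genes. Differences are log2 fold changes of FPKM + 0.5 with their standard error (SE), tested with limma over the 11674 genes with a mean of at least 1 FPKM, and a gene was called when its Benjamini-Hochberg adjusted p was under 0.05. Whole reads recovered from the FPKM steps totalled 19.1 to 24.0 M per library. Of the 40 genes, 39 reached the minimum of 1 FPKM. The exception was Car9, a carbonic anhydrase that is a sensitive HIF target, which had 0.139, 0.417 and 0.177 FPKM in double KO, 0.199, 0.547 and 0.378 FPKM in Taz KO and 0.309, 0.548 and 0.358 FPKM in control libraries, or 7 to 29 reads. Yap1 averaged 4.25 ± 0.334 FPKM in double KO, 18.3 ± 0.346 FPKM in Taz KO and 18.4 ± 0.574 FPKM in control cells (SD, n = 3 each), which follows the labels for Yap. The gene value of Wwtr1, which encodes TAZ, was 13.9 ± 0.772, 10.9 ± 1.58 and 12.1 ± 0.847 FPKM in double KO, Taz KO and control cells. The labels do not say which exon was removed, so that value does not check the Taz deletion. All 10 stem cell marker genes, Pou5f1, Nanog and Sox2 among them, were above the minimum. Their summed level was 1421 to 1512 FPKM in double KO, 1660 to 1717 FPKM in Taz KO and 1690 to 1751 FPKM in control libraries. In double KO against control 4 of them fell and 1 rose, where 12.9% of all tested genes were called lower and 12.4% higher. The 10 fibroblast markers summed to 4.01 to 12.5 FPKM in double KO, 2.45 to 7.198 FPKM in Taz KO and 3.13 to 5.13 FPKM in control libraries, the highest being double KO 2; 7 of them stayed under 1 FPKM in every library, 3 of which (Postn, Lum and Dcn) were at 0. The 1 tested, Thy1, had a log2 fold change of 0.87 in double KO against control and was called with the replicate number as a block (limma adjusted p = 0.00267, and 0.202 without). Of the marker lists of other cell types only that of trophectoderm had a summed level without overlap between double KO and control. It was 11.8 to 12.1 FPKM in double KO, 9.26 to 11.9 FPKM in Taz KO and 8.36 to 9.37 FPKM in control libraries, with 1 of its 6 genes called higher. With the block Eomes and Tubb3 were also called higher (limma adjusted p = 0.0212 and 0.0185). Number 2 was lower than the other replicate numbers for T (log2 difference -1.69) and Tubb3 (-1.27). It was higher for Thy1 (0.88) and Gata4 (0.55), with limma adjusted p of 0.000741 to 0.00714 for these 4 genes. Mitochondrial transcripts took 4.64% to 4.86%, 3.91% to 4.25% and 3.57% to 4.45% of reads in double KO, Taz KO and control libraries. The part of these differences in the results below was not tested, and in bulk RNA fewer cells of a kind and less RNA per cell cannot be told apart.

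In double KO against control cells, 7 of the 39 genes fell and 1 rose. The falls were in the payoff steps and at the pyruvate branch point (Pgk1, Pgam1, Eno1, Ldha, Ldhb, Pdha1) and in Higd1a, a small mitochondrial protein induced in hypoxia, and the rise was in Epas1, which encodes HIF-2 alpha. Of all tested genes 25.3% were called, 12.9% lower and 12.4% higher, beside 17.9% lower and 2.56% higher of the 39. Their share that fell was thus not far above the background, and their share that rose was below it. The median log2 fold change of the 39 was -0.29, beside -0.02 over all tested genes, and 30 of the 39 were below 0. Some of these signs depended on the scaling. With quantile normalization Slc2a1, Slc2a3, Gpi1, Tpi1 and Gapdh turned positive and Mxi1 negative. The median shift over all tested genes was then -0.01. With columns rescaled to a common total Tpi1 and Egln1 turned positive. The median of the 39 under these scalings is not given here. The groups did not overlap for 15 of the 39 genes (38.5%), against 45.6% of all tested genes. In Taz KO against control cells none of the 39 was called, against 1.28% of all tested genes (0.565% lower, 0.72% higher), and the groups did not overlap for 1 gene, Pdha1, against 18.7% of all. Only Pfkm, the muscle isoform of phosphofructokinase, had an unadjusted p under 0.05 there, against 12.8% of all tested genes, and limma voom on recovered reads called none either. In double KO against Taz KO cells 4 fell (Ldhb, Pdk1, Pdha1, Slc16a1) and Epas1 rose, where 13.9% of all tested genes were called, 7.45% lower and 6.42% higher, and 6 of the 39 had groups that did not overlap, against 30.6% of all.

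**Figure D1:**
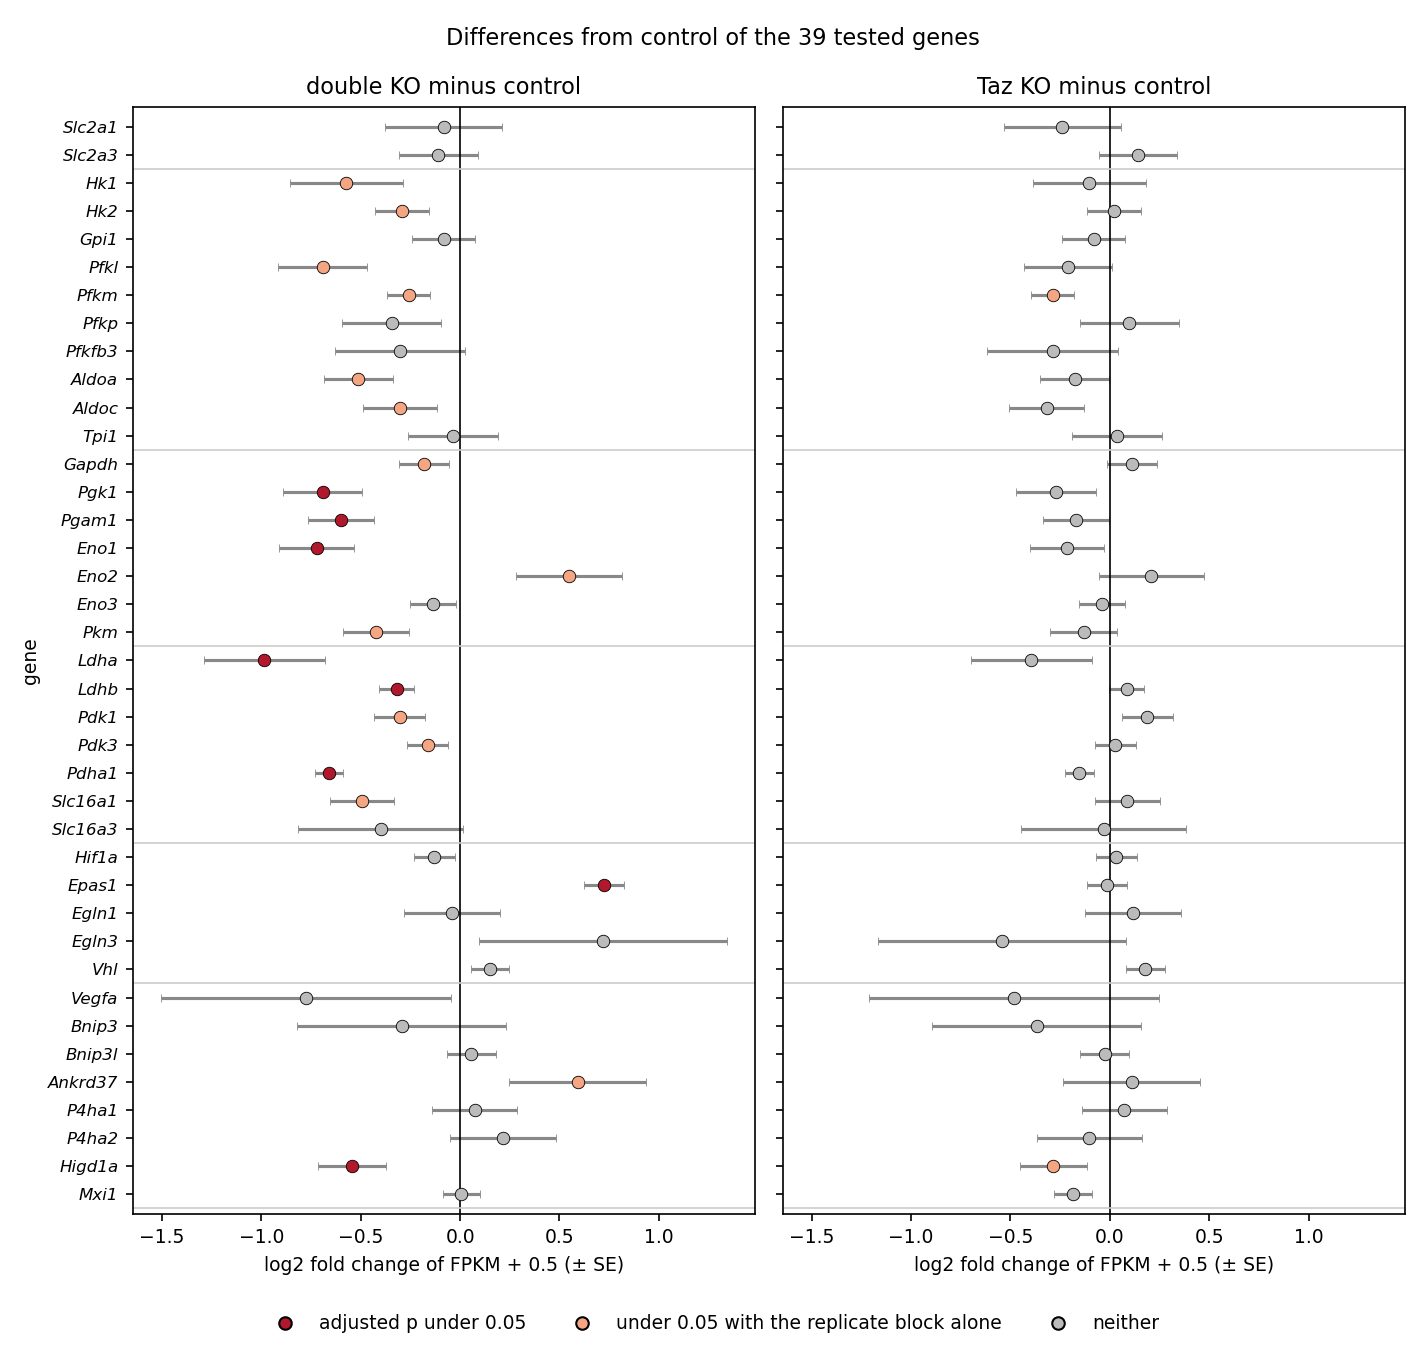
Log2 fold change of FPKM + 0.5 (x axis, ± SE from limma) for the 39 tested genes (y axis, grouped by role from glucose uptake at the top to other HIF targets at the bottom) in double KO minus control (left) and Taz KO minus control (right), 3 libraries a group. Red genes had an adjusted p under 0.05, light ones only with the replicate number as a block; 30 of the 39 lie below 0 on the left and 24 on the right.

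Libraries with the same number in their titles deviated together, though less clearly for number 1. The number was taken from the titles and separated from the genotype. With the number as a block, 18 of the 39 genes fell and 3 rose in double KO against control cells, where 28.1% of all tested genes were lower and 24.2% higher. The share that fell was then 46.2%. In double KO against Taz KO cells 17 fell and 3 rose (background 25.6% lower and 16.8% higher), and in Taz KO against control cells 2 fell, Pfkm and Higd1a (background 4.05% lower and 7.78% higher). Those called only with the block against control are described below; against Taz KO they were Hk1, Hk2, Pfkl, Pfkp, Aldoa, Gapdh, Pgk1, Pgam1, Eno1, Pkm, Ldha, Pdk3 and Higd1a, which fell, and Eno2 and Egln3, which rose. Within the 3 pairs of equal number, double KO was lower than control in all 3 for 18 of the 39 genes, against 37.1% of all tested genes, and higher in all 3 for 3 genes, against 33% of all. Taz KO was lower than control in all 3 pairs for 10 genes and higher for 5, against 22% and 27.5% of all tested genes. Double KO was lower than Taz KO in all 3 pairs for 14 genes and higher for 5, against 39.8% and 28.9% of all.

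Glucose enters through Slc2a1 and Slc2a3, facilitative glucose transporters. Neither was called in any of the 3 comparisons. Slc2a3, the neuronal-type high affinity transporter, had 181, 282 and 160 FPKM in double KO 1, 2 and 3, 228, 256 and 235 FPKM in Taz KO 1, 2 and 3, and 224, 246 and 185 FPKM in control 1, 2 and 3. Number 2 was the highest library in each group, and the groups overlapped. Slc2a1 ranged over 79.4 to 165 FPKM in double KO, 86.3 to 122 FPKM in Taz KO and 87.0 to 156 FPKM in control libraries. For both genes the log2 fold change of double KO against control, -0.08 for Slc2a1 and -0.11 for Slc2a3, turned positive with quantile normalization.

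In the preparatory steps none of 10 genes was called without the block, and all 10 log2 fold changes of double KO against control were below 0 (median -0.30); with quantile normalization those of Gpi1 and Tpi1 were above 0, and Tpi1 also with columns rescaled to a common total. With the block 6 fell: Hk1, Hk2, Pfkl, Pfkm, Aldoa and Aldoc. Hexokinases trap glucose as its phosphate. Hk2 had 60.4, 62.3 and 56.0 FPKM in double KO, 83.9, 64.2 and 75.0 FPKM in Taz KO and 85.4, 74.0 and 61.4 FPKM in control libraries, and Hk1 had 13.8, 22.4 and 11.1 FPKM in double KO, 21.1, 29.2 and 15.2 FPKM in Taz KO and 23.7, 26.2 and 18.8 FPKM in control libraries. Every double KO library lay below the control library of its own number for both genes, while the groups overlapped when the number was ignored. The log2 fold change of double KO against control was -0.57 for Hk1 (limma adjusted p = 0.00265 with the block and 0.17 without) and -0.29 for Hk2 (limma adjusted p = 0.0416 with the block and 0.146 without).

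Phosphofructokinase makes the committed step and has liver, muscle and platelet isoforms, Pfkl, Pfkm and Pfkp. Pfkl had 48.8, 45.3 and 38.1 FPKM in double KO, 79.6, 44.9 and 64.8 FPKM in Taz KO and 89.6, 69.7 and 57.6 FPKM in control libraries, with all double KO libraries below all control libraries (limma adjusted p = 0.0509, and 0.00607 with the block). Pfkm had 29.3, 31.9 and 28.3 FPKM in double KO, 28.1, 34.1 and 25.9 FPKM in Taz KO and 36.1, 37.9 and 33.4 FPKM in control libraries. It was lower than control by a log2 fold change of -0.26 in double KO and -0.29 in Taz KO cells, called with the block in both (limma adjusted p = 0.00672 and 0.0173). Pfkp had 40.4, 57.6 and 29.2 FPKM in double KO, 62.0, 58.6 and 47.4 FPKM in Taz KO and 63.4, 55.5 and 39.9 FPKM in control libraries, with overlap between all groups.

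Aldolase splits the sugar into a pair of triose phosphates. Its main form here, Aldoa, had 473, 540.1 and 374 FPKM in double KO, 676, 529 and 536 FPKM in Taz KO and 780.4, 645 and 549.8 FPKM in control libraries, and Aldoc had 13.3, 13.5 and 10.2 FPKM in double KO, 15.0, 11.03 and 10.7 FPKM in Taz KO and 17.8, 16.7 and 11.8 FPKM in control libraries. The double KO libraries lay below all control libraries for Aldoa (log2 fold change -0.51, limma adjusted p = 0.00518 with the block and 0.0608 without) but overlapped them for Aldoc (-0.30, limma adjusted p = 0.0262 with the block and 0.262 without). Triose phosphate isomerase, Tpi1, had 192, 158 and 164 FPKM in double KO, 226, 121 and 210 FPKM in Taz KO and 208, 158 and 161 FPKM in control libraries. It showed the smallest genotype share of the 39, 1.20% of its sum of squares, against 65.5% for the replicate number. Gpi1 ranged from 147 to 213 FPKM and Pfkfb3, which makes an activator of phosphofructokinase, from 0.718 to 2.52 FPKM over the 9 libraries, and neither was called with or without the block.

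In the payoff steps Pgk1, Pgam1 and Eno1 fell in double KO cells, and Gapdh and Pkm fell with the block. Phosphoglycerate kinase, Pgk1 (chrX:106187100-106203699), makes the first ATP of the pathway. It had 137, 130 and 109 FPKM in double KO, 211, 126 and 176 FPKM in Taz KO and 245, 196 and 171 FPKM in control libraries, all double KO libraries being below all control ones (log2 fold change -0.69, SE 0.20, limma adjusted p = 0.0347). The mutase Pgam1, which moves the phosphate group, had 67.9, 52.4 and 60.9 FPKM in double KO, 95.9, 61.6 and 90.2 FPKM in Taz KO and 96.9, 89.3 and 88.1 FPKM in control libraries (log2 fold change of double KO against control -0.60, SE 0.17, limma adjusted p = 0.0293). Eno1, the enolase used by most tissues, had 209.8, 168 and 183 FPKM in double KO, 323, 198 and 288 FPKM in Taz KO and 364, 287 and 278 FPKM in control libraries (log2 fold change of double KO against control -0.72, SE 0.19, limma adjusted p = 0.0233). For these 3 genes and for Ldha the Taz KO 2 library was the lowest of its group and within the double KO range, while Taz KO 1 and 3 lay above every double KO library.

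The neuronal enolase Eno2 went the other way from Eno1. It had 5.09, 7.92 and 4.92 FPKM in double KO, 4.31, 6.81 and 3.09 FPKM in Taz KO and 3.81, 4.54 and 3.25 FPKM in control libraries, with every double KO library above every control library. It rose in double KO cells only with the block, against control (log2 fold change 0.55, limma adjusted p = 0.00505, and 0.159 without) and against Taz KO (0.34, limma adjusted p = 0.0452, and 0.423 without). Eno1 gave 94.5 ± 1.74% of the summed enolase FPKM in double KO, 96.3 ± 1.75% in Taz KO and 97.1 ± 0.380% in control cells (SD, n = 3 each). Gapdh had 399, 330 and 375 FPKM in double KO, 480, 375 and 500 FPKM in Taz KO and 436, 382 and 431 FPKM in control libraries, the groups overlapping. Its log2 fold change of double KO against control was -0.18 (limma adjusted p = 0.0337 with the block and 0.322 without) and was 0.02 with quantile normalization. Pyruvate kinase, Pkm, the most abundant of the 40, had 1131, 942 and 1019 FPKM in double KO, 1484, 960.1 and 1396 FPKM in Taz KO and 1565, 1281 and 1303 FPKM in control libraries, with no overlap between double KO and control (limma adjusted p = 0.0947, and 0.00716 with the block). Eno3, the muscle form, stayed between 3.92 and 5.57 FPKM. Chromosome 6 carries Slc2a3, Hk2, Tpi1, Gapdh, Eno2, Ldhb and Vhl, and the median log2 fold change of its 495 tested genes was 0.19 in double KO and 0.21 in Taz KO against control cells; the part of that shift in these genes was not tested.

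**Figure D2:**
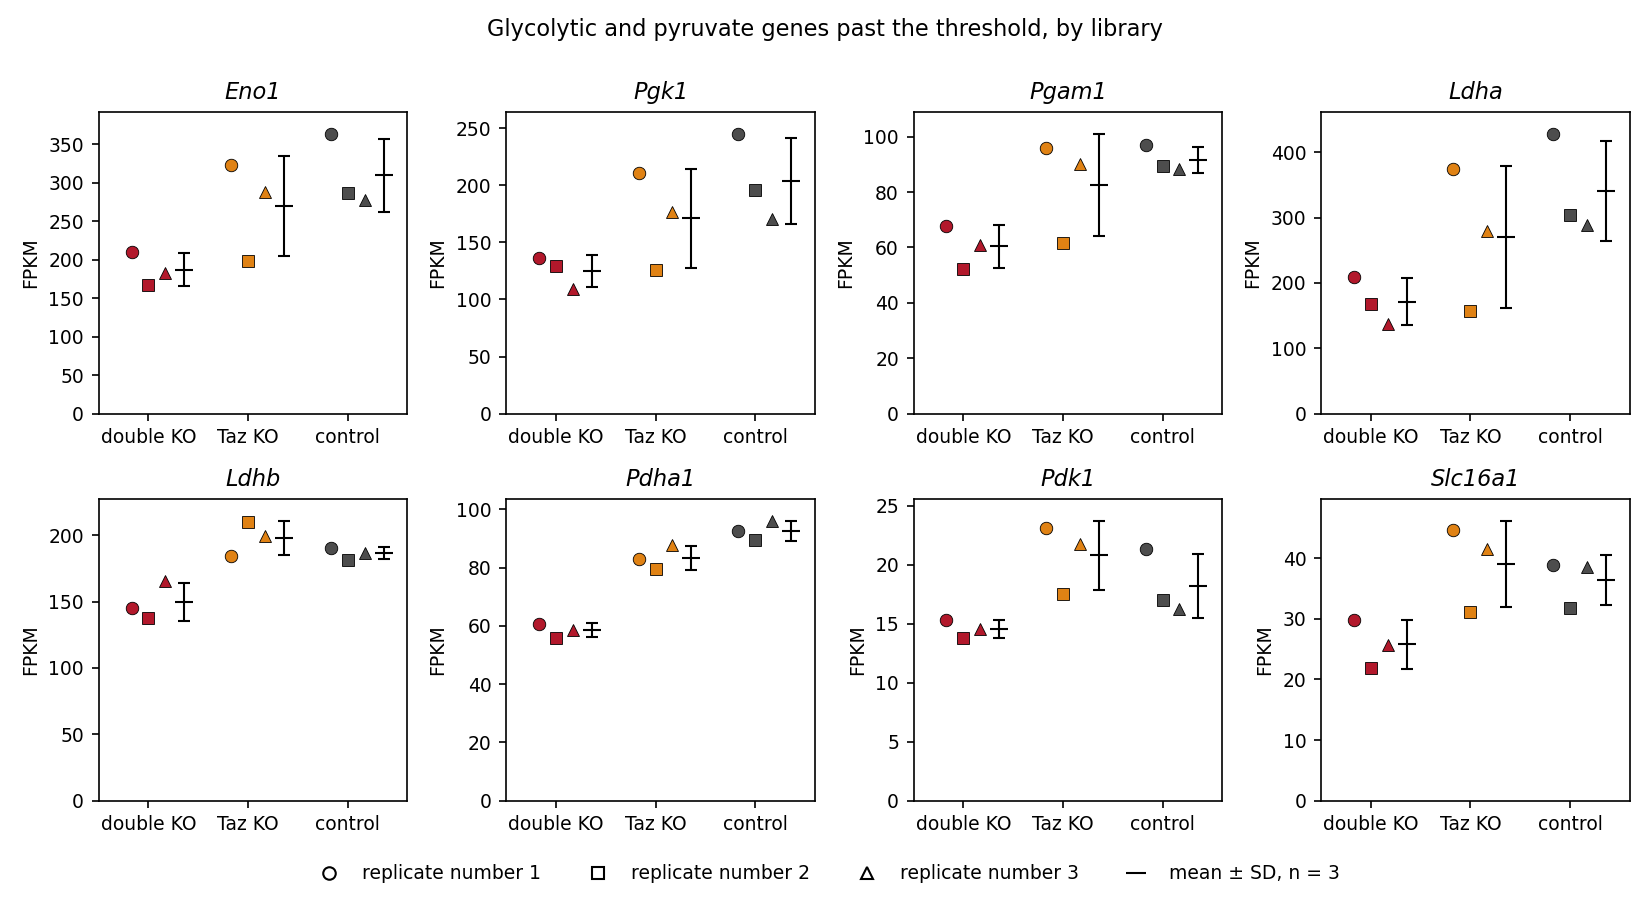
FPKM (y axis, from 0) of the 8 glycolytic and pyruvate genes called in double KO against control or against Taz KO cells, by library; circles, squares and triangles are replicate numbers 1, 2 and 3, and the black marks are the mean ± SD of 3 libraries. Double KO libraries lie below all control libraries in every panel, and the Taz KO 2 square lies far under its group for Eno1, Pgk1, Pgam1 and Ldha.

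At the pyruvate branch, Ldha, Ldhb and Pdha1 fell in double KO against control cells. Lactate dehydrogenase turns pyruvate into lactate; Ldha (chr7:46841475-46855627) encodes its muscle type subunit and is a known HIF target. Ldha had the largest fall of the 39 genes, with 209.5, 168 and 137 FPKM in double KO, 374, 157 and 280 FPKM in Taz KO and 428, 304 and 288 FPKM in control libraries (log2 fold change -0.99, SE 0.31, limma adjusted p = 0.0448). Every double KO library was below every control library, and Taz KO spanned both. Ldhb, the heart type subunit, had 145, 138 and 166 FPKM in double KO, 184, 210 and 199 FPKM in Taz KO and 191, 181 and 187 FPKM in control libraries. It fell both against control (log2 fold change -0.32, SE 0.09, limma adjusted p = 0.0296) and against Taz KO cells (-0.40, limma adjusted p = 0.0202), with no overlap in either. With quantile normalization these were -0.09 and -0.20 and neither was called (limma adjusted p = 0.629 and 0.316), and with columns rescaled to a common total the fall against control was not called (-0.24, limma adjusted p = 0.0821). Ldha made up 59.0%, 55.0% and 45.2% of the summed Ldha and Ldhb level in double KO, 67.0%, 42.8% and 58.5% in Taz KO and 69.2%, 62.6% and 60.7% in control libraries, so that every double KO share was under every control share.

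Pdha1 (chrX:160122209-160138413), the catalytic alpha subunit of pyruvate dehydrogenase, was the clearest of the falls. It had 60.8, 56.0 and 58.7 FPKM in double KO, 82.9, 79.5 and 87.6 FPKM in Taz KO and 92.6, 89.4 and 96.1 FPKM in control libraries. The 3 groups were fully separated, with Taz KO between the others. The log2 fold change was -0.66 against control (SE 0.07, limma adjusted p = 0.00055) and -0.51 against Taz KO cells (SE 0.07, limma adjusted p = 0.00445), while Taz KO against control gave -0.15 (SE 0.07, limma adjusted p = 0.431). Pdk1 and Pdk3 are kinases that switch the complex off. Pdk1 had 15.3, 13.8 and 14.6 FPKM in double KO, 23.2, 17.6 and 21.7 FPKM in Taz KO and 21.3, 17.0 and 16.3 FPKM in control libraries, lower in double KO than in Taz KO cells by -0.49 (SE 0.13, limma adjusted p = 0.0367) and, called only with the block, than in control cells by -0.30 (limma adjusted p = 0.0136, and 0.113 without). Pdk3 had 13.3, 11.4 and 12.6 FPKM in double KO, 14.7, 12.8 and 15.3 FPKM in Taz KO and 14.6, 12.4 and 14.9 FPKM in control libraries, a difference called against both groups only with the block (limma adjusted p = 0.0183 against Taz KO and 0.0272 against control).

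Lactate leaves through Slc16a1 and Slc16a3. Slc16a1, the widely used monocarboxylate transporter, had 29.8, 21.8 and 25.7 FPKM in double KO, 44.6, 31.1 and 41.5 FPKM in Taz KO and 38.9, 31.7 and 38.6 FPKM in control libraries. No double KO library reached the lowest of the other 6, and the fall was called against Taz KO (log2 fold change -0.58, SE 0.16, limma adjusted p = 0.0449) and, against control, with the block (-0.50, limma adjusted p = 0.000408, and 0.0525 without). Slc16a3, a lactate exporter and HIF target, ranged over 5.61 to 16.1 FPKM in double KO, 9.63 to 17.7 FPKM in Taz KO and 7.71 to 18.9 FPKM in control libraries and was not called in any comparison.

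HIF factors bind the letters RCGTG, which here means ACGTG or GCGTG on either strand. RefSeq promoter windows of the build GRCm38.p6, 250 bases before to 50 bases after a start site, were found for 37 of the 40 genes (53 windows; Slc2a3, Epas1 and Bnip3l had none in the table). A match was present in 79.2% of these windows, against 63.6% of windows of all tested genes and 43.8% of all windows in the table. ACGTG alone was present in 56.6%, 26.3% and 19.6%. The genes were picked by name with known HIF targets among them, and some have several windows. These shares therefore describe the chosen genes and were not tested. Shown here are the windows of the 2 glycolytic genes Ldha and Pgk1 and of Pdha1, with the matches in capitals: Ldha (chr7:46845554-46845853, + strand) has 7 matches, 4 of them in a pair of CACGTG palindromes, each of which is a match on both strands, Pgk1 (chrX:106186850-106187149, + strand) has 2, and Pdha1 (chrX:160138381-160138680, - strand) has 4, all of them GCGTG. Ldha has another window (chr7:46846832-46847131, + strand) with 2 matches, both GCGTG, which is not shown. A match describes the letters and is not evidence of binding.
Ldha: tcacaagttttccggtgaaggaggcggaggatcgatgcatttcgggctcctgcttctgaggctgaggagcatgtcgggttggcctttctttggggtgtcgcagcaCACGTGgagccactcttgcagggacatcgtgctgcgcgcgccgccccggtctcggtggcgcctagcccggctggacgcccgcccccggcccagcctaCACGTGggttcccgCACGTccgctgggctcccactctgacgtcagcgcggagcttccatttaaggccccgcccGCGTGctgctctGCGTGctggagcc
Pgk1: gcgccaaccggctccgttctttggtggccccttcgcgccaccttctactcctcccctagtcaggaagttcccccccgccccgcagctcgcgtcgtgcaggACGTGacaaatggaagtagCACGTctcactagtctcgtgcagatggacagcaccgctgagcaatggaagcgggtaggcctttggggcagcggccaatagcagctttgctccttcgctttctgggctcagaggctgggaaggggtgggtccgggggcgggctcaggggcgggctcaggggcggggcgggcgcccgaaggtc
Pdha1: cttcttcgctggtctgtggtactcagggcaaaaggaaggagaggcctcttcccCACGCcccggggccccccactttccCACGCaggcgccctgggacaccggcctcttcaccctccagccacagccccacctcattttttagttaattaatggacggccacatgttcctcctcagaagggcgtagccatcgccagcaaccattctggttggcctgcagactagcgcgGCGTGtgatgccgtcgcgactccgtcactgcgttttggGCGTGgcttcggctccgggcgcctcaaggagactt

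Among HIF factors and oxygen sensors, Epas1 was the only one of 5 called. Epas1 (chr17:86753700-86833410) encodes the oxygen-regulated alpha subunit HIF-2 alpha. It had 39.8, 30.8 and 38.01 FPKM in double KO, 21.2, 22.2 and 20.8 FPKM in Taz KO and 22.1, 22.4 and 20.4 FPKM in control libraries, all double KO libraries being above the other 6. Its log2 fold change was 0.72 against control (SE 0.10, limma adjusted p = 0.00163) and 0.74 against Taz KO cells (SE 0.10, limma adjusted p = 0.00377). Hif1a, which encodes the related HIF-1 alpha subunit, had 24.3, 20.8 and 25.9 FPKM in double KO, 24.6, 27.0 and 27.8 FPKM in Taz KO and 23.8, 25.7 and 28.3 FPKM in control libraries, with overlap throughout. Epas1 therefore made up 60.4 ± 1.41% of the summed Hif1a and Epas1 level in double KO, 44.7 ± 1.82% in Taz KO and 45.5 ± 3.26% in control cells (SD, n = 3 each). Vhl, part of the ubiquitin ligase that removes HIF alpha subunits, had 14.1, 16.8 and 13.9 FPKM in double KO, 15.7, 14.0 and 15.9 FPKM in Taz KO and 13.4, 12.5 and 14.2 FPKM in control libraries, and its groups overlapped.

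The prolyl hydroxylases Egln1 and Egln3 are HIF targets as well as HIF regulators. Egln1 had 7.73, 13.9 and 7.25 FPKM in double KO, 12.2, 10.4 and 8.76 FPKM in Taz KO and 11.8, 9.09 and 7.999 FPKM in control libraries. Egln3 (chr12:54178981-54203860) had 14.4, 40.8 and 10.6 FPKM in double KO, 12.3, 8.67 and 3.72 FPKM in Taz KO and 19.7, 12.9 and 5.15 FPKM in control libraries. The double KO 2 library held the highest value of both genes, and number 3 the lowest of each group. Egln3 rose against Taz KO only with the block (log2 fold change 1.26, limma adjusted p = 0.0214, and 0.211 without), and neither fit called it against control (log2 fold change 0.72, limma adjusted p = 0.425, and 0.117 with the block).

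The other HIF targets are effectors of the response: Vegfa draws in blood vessels, Bnip3 and Bnip3l mark mitochondria for autophagy, and P4ha1 and P4ha2 hydroxylate collagen. Higd1a, which fell, had 8.81, 6.78 and 8.30 FPKM in double KO, 11.1, 7.24 and 10.9 FPKM in Taz KO and 12.6, 10.4 and 12.5 FPKM in control libraries (log2 fold change -0.54, SE 0.17, limma adjusted p = 0.0448). Double KO libraries were below all control libraries, and Taz KO 2 lay among them. The block also called Higd1a against Taz KO (log2 fold change -0.26, limma adjusted p = 0.0233) and in Taz KO against control (-0.28, limma adjusted p = 0.0451). Vegfa had 4.88, 28.1 and 3.61 FPKM in double KO, 10.03, 19.4 and 5.04 FPKM in Taz KO and 18.8, 17.3 and 8.71 FPKM in control libraries. Bnip3 had 12.9, 37.6 and 10.9 FPKM in double KO, 24.0, 17.4 and 10.8 FPKM in Taz KO and 35.7, 23.1 and 12.0 FPKM in control libraries. In both genes double KO 2 was the highest of the 9 libraries while double KO 1 and 3 were near the bottom, and the groups overlapped.

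Ankrd37, an ankyrin repeat protein and strong HIF target, had 7.22, 8.42 and 4.65 FPKM in double KO, 7.54, 3.78 and 3.30 FPKM in Taz KO and 6.52, 3.28 and 3.41 FPKM in control libraries. Each double KO library exceeded the control library of its number, and the rise was called only with the block (log2 fold change 0.59, limma adjusted p = 0.0394, and 0.235 without). Ankrd37 and Egln1 lie on chromosome 8, where the median log2 fold change of 636 tested genes was 0.30 in double KO and 0.35 in Taz KO against control cells; its part in the Ankrd37 value was not tested. P4ha2 had 1.19, 2.05 and 0.931 FPKM in double KO, 1.01, 1.37 and 0.628 FPKM in Taz KO and 1.32, 1.15 and 0.809 FPKM in control libraries, with overlap. Bnip3l kept within 19.1 to 26.6 FPKM, P4ha1 within 7.47 to 14.3 FPKM and Mxi1, a MYC antagonist, within 4.68 to 6.46 FPKM over the 9 libraries, and none of these 4 genes was called in a comparison of groups, with or without the block. Over the 8 tested genes of this list the median log2 fold change of double KO against control was 0.03.

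The windows of Bnip3 and Egln3, both of which varied widely between libraries of a group, are shown with matches in capitals for comparison with those of the glycolytic genes. Bnip3 (chr7:138909457-138909756, - strand) has 5 matches, a CACGTG among them, and Egln3 (chr12:54203825-54204124, - strand) has 1.
Bnip3: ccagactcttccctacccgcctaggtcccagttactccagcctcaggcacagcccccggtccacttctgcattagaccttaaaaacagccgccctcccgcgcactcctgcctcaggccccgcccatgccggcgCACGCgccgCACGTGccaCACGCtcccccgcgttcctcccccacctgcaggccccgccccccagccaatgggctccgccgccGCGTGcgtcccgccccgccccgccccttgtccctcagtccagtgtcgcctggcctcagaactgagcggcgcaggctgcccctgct
Egln3: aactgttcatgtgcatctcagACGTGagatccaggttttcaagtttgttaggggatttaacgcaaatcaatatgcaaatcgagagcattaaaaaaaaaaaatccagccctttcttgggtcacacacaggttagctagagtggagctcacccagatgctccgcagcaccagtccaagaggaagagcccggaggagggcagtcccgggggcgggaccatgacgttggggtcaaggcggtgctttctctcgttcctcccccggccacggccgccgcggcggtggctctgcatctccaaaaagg

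**Figure D3:**
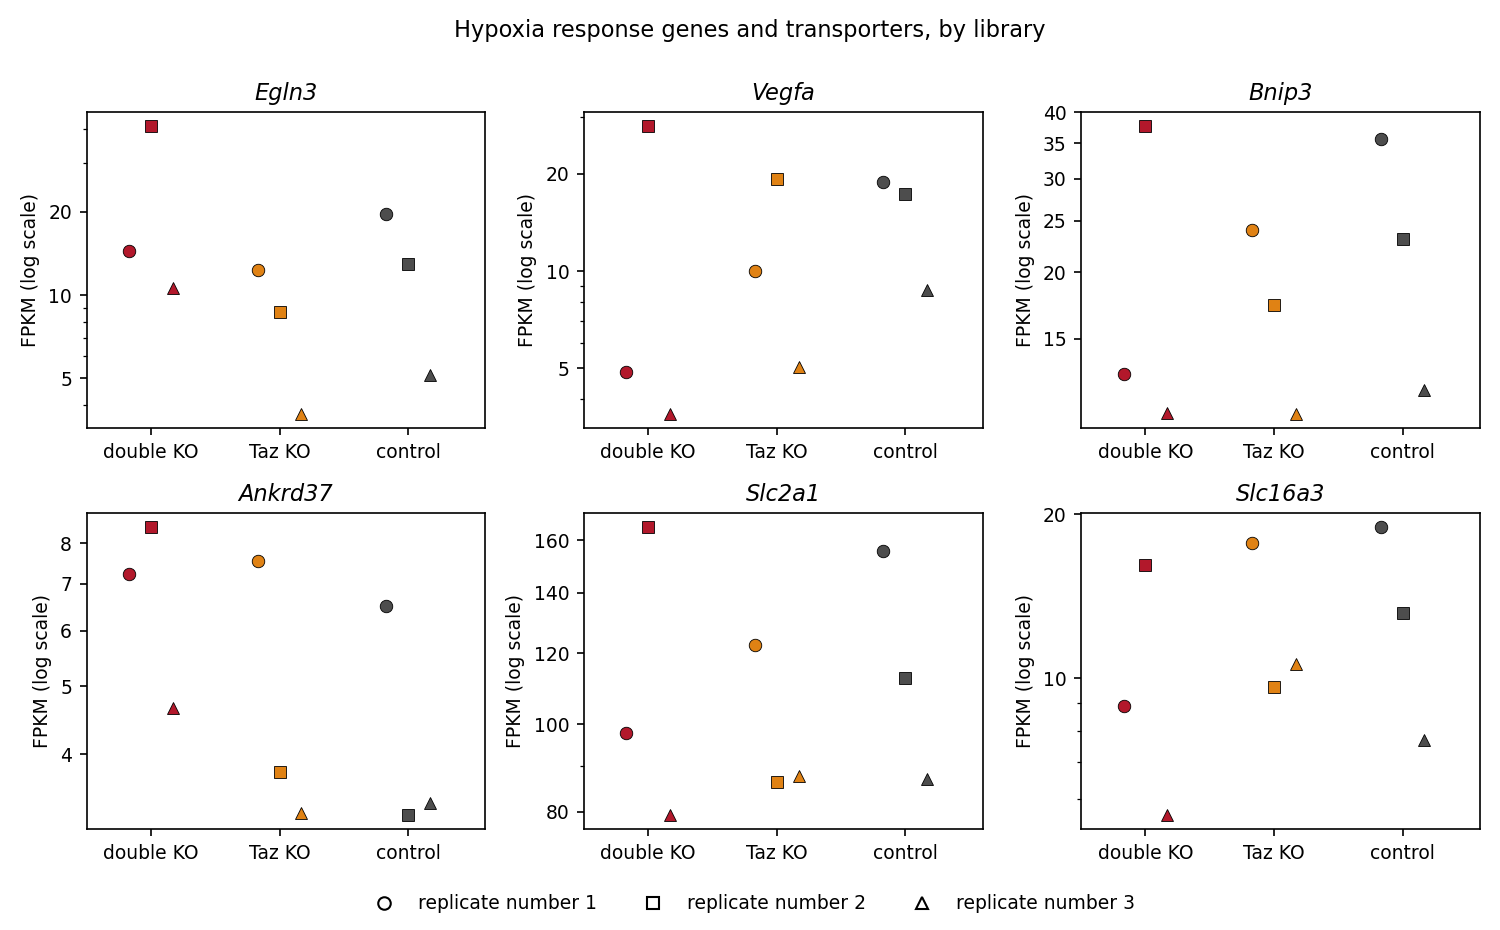
FPKM on a log scale (y axis) of 4 HIF pathway genes, the glucose transporter Slc2a1 and the lactate exporter Slc16a3, by library; circles, squares and triangles are replicate numbers 1, 2 and 3. Double KO 2 is the highest library for Egln3, Vegfa, Bnip3, Ankrd37 and Slc2a1, and number 3 is at or near the bottom of each group.

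The double KO 2 library often held an extreme value of these genes. Such counts were made for these genes alone and not over all tested genes, so they do not set these genes apart. Double KO 2 was the highest of the 9 libraries for 7 of the 9 genes made up of Egln3 and the 8 other HIF targets. Of the genes in other roles named above as HIF targets, Egln1 was also highest there. Ldha and Slc16a3 were highest in control 1, at 428 and 18.9 FPKM against 168 and 16.1 FPKM in double KO 2. Of the glycolysis and glucose uptake genes, Slc2a1, Slc2a3, Gpi1, Eno2 and Eno3 were highest in double KO 2. Hk2, Pfkl, Pfkp, Pfkfb3, Aldoa, Aldoc, Pgk1, Pgam1, Eno1 and Pkm were highest in control 1. Over all 40 genes double KO 2 was the highest for 14 and the lowest for 11. Control 1 was the highest for 13 genes and the lowest for none, and double KO 3 was the lowest for 15 and the highest for none. The difference between double KO and control accordingly changed with the pair: the median over the 39 genes was -0.44 for number 1, -0.01 for number 2 and -0.20 for number 3, against 0.00, -0.04 and -0.02 over all tested genes. For the 8 other HIF targets it was -0.22, 0.42 and 0.01. For the 7 genes of pyruvate and lactate the medians were -0.47, -0.39 and -0.43, close to each other in the 3 pairs. Of these 7 genes 6 were lower in double KO in all 3 pairs, while Slc16a3 had -1.05, 0.28 and -0.43. Vegfa shows the spread, being lower in double KO than in control by -1.85 in number 1 and -1.16 in number 3 but higher by 0.68 in number 2.

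**Figure D4:**
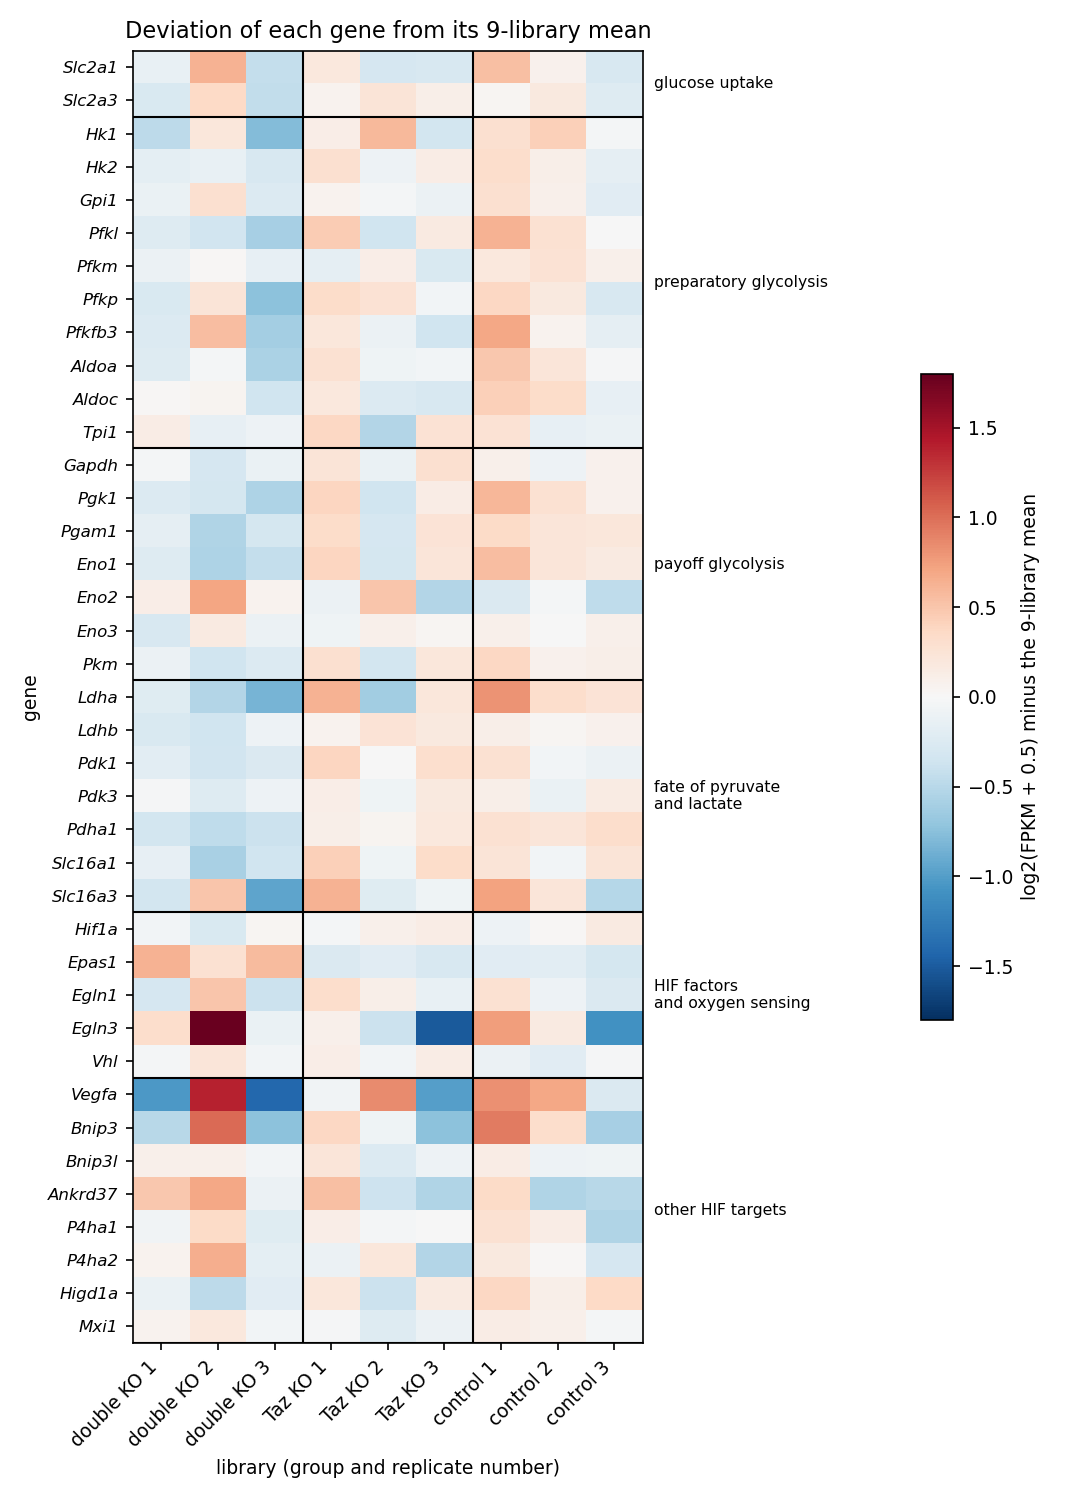
Log2(FPKM + 0.5) of each of the 39 tested genes (rows, by role) minus its mean over the 9 libraries (columns, by group and replicate number); red is above and blue below the mean. The double KO 2 column is red for most of the other HIF targets and blue for Gapdh, Pgk1, Pgam1, Eno1 and Pkm. Epas1 is red in all 3 double KO columns, and Pdha1 is blue in all 3.

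The replicate number was tested on its own with a limma F-test in the fit with genotype. It was called for 20 of the 39 genes (51.3%), against 42.4% of all tested genes. Without double KO 3, Taz KO 1, control 3 or control 1 it was called for 9, 10, 11 and 13 genes. The share over all tested genes in those fits is not given here. Number 2 was higher than the mean of the other numbers for 7 genes (Slc2a3, Hk1, Pfkm, Pfkp, Eno2, Vegfa, P4ha2) and lower for 9 (Tpi1, Gapdh, Pgam1, Eno1, Pkm, Pdk1, Pdk3, Slc16a1, Higd1a), where 18.6% and 30.4% of all tested genes were called. Of the 9 lower in number 2, 7 are payoff enzymes or act on pyruvate and lactate. Vegfa was higher in number 2 by a log2 difference of 1.46 (SE 0.34, limma adjusted p = 0.00908), and Slc16a1 was lower by -0.36 (SE 0.05, limma adjusted p = 0.00147). Number 3 was lower for 11 genes and higher for none, where 10.4% and 15.9% of all tested genes were called. The 11 were Hk1, Pfkm, Pfkp, Aldoa, Aldoc, Eno2, Egln3, Vegfa, Bnip3, Ankrd37 and P4ha2, with the largest difference for Egln3 at -1.36 (SE 0.30, limma adjusted p = 0.0189). Number 1 gave no call in limma, against 0.00857% of all tested genes called higher and 0% lower, but 17 of the 39 were higher at an unadjusted p under 0.05 and none lower, where 22.7% of all tested genes had such a p in either direction.

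Splitting the sum of squares of each gene between genotype, number and remainder placed the 39 genes along a wide range. The genotype took a median of 35.1% and the number 41.7%, against 47.1% and 32.9% over all tested genes. The number took more than the genotype in 22 of the 39 genes (56.4%), against 42.4% of all tested genes. Pdha1 (97.0% genotype), Epas1 (92.3%) and Ldhb (82.8%) lay at one end, and Vegfa (66.4% number), P4ha2 (66.4%) and Tpi1 (65.5%) at the other. By role the median genotype share was 66.4% for the genes of pyruvate and lactate, 46.9% for the payoff steps, 33.3% for the preparatory steps, 32.0% for HIF factors and oxygen sensing, 14.5% for the other HIF targets and 12.1% for the 2 glucose transporters. These are descriptions of 9 libraries, not tests.

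**Figure D5:**
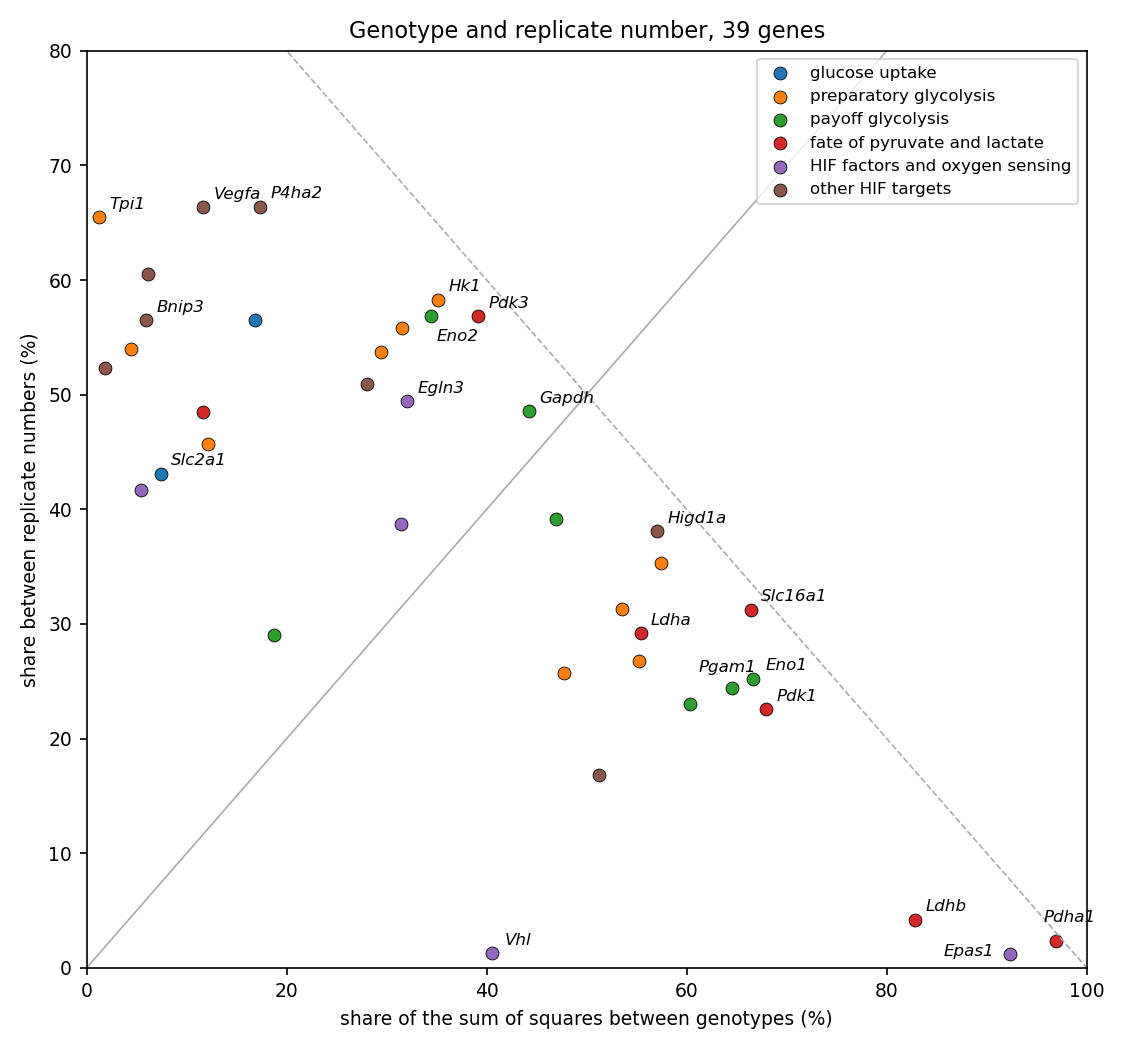
Share of the sum of squares of log2(FPKM + 0.5) that lies between genotypes (x axis, percent) and between replicate numbers (y axis, percent) for the 39 tested genes, coloured by role. Genes above the solid diagonal vary more with the number than with the genotype (22 of 39), and the dashed line marks where no remainder is left; Pdha1, Epas1 and Ldhb sit at the lower right, Vegfa, P4ha2 and Tpi1 at the upper left.

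The calls of Pdha1 and Epas1 held in every fit that left out 1 library, against control (highest limma adjusted p = 0.00495 and 0.00983) and against Taz KO (0.0248 and 0.0226). Without number 1 of every group both were lost against control, and without number 3 that of Epas1. Against Taz KO both were lost without number 1 and without number 3. The other 6 calls against control were each lost in 3 to 8 of the 9 fits without 1 library. Their highest limma adjusted p came without control 1: 0.125 for Pgk1, 0.102 for Pgam1, 0.0911 for Eno1, 0.152 for Ldha, 0.104 for Ldhb and 0.138 for Higd1a. These 6 calls were also lost with no filter on low values (limma adjusted p of 0.0534 to 0.0957), and with quantile normalization those of Pgk1 (log2 fold change -0.48, limma adjusted p = 0.0754) and Ldha (-0.75, 0.0704) were lost and Eno1 was at -0.48 and still called. Without a variance trend the calls of Ldha and Higd1a were lost (limma adjusted p = 0.05001 and 0.0510). The count of 8 was 2 without control 1, 3 without control 2 or double KO 3, 4 without double KO 2 and 5 without control 3 or double KO 1. Against Taz KO the highest adjusted p was 0.140 for Pdk1 and 0.164 for Slc16a1, both without Taz KO 1, and 0.0714 for Ldhb without double KO 1. The calls of Pdk1 and Slc16a1 were also lost with no filter (limma adjusted p = 0.0686 and 0.0867), those of Ldhb, Pdk1 and Slc16a1 with only these groups in the fit (limma adjusted p = 0.0668, 0.0617 and 0.0942), and that of Slc16a1 with no variance trend (limma adjusted p = 0.0511). The count of 5 was 2 without double KO 1 or Taz KO 3, 3 without double KO 3, Taz KO 1 or control 2, and 13 without Taz KO 2. The share of all tested genes called in the fits without a library is not given here.

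Other genes of these pathways were read from lists. Of 36 other genes of glycolysis and pyruvate use 26 were tested. In double KO against control cells 3 rose (Pfkfb2, Galm, Fbp2) and 5 fell (Pck2, Pgam2, Ldhc, Pcx, Adpgk), where 12.4% of all tested genes were higher and 12.9% lower. With the block 5 rose and 12 fell (24.2% and 28.1% of all). For Taz KO against control the count was 1 fall, Pck2 (0.565% of all lower). With the block it was 2 rises and 3 falls (7.78% and 4.05% of all). Pck2, the mitochondrial enzyme that makes phosphoenolpyruvate, had 7.61, 8.99 and 5.95 FPKM in double KO, 15.6, 14.1 and 14.8 FPKM in Taz KO and 25.4, 28.2 and 26.3 FPKM in control libraries. The groups were fully separated, and Pck2 was lower than control in double KO cells (log2 fold change -1.78, SE 0.13, limma adjusted p = 9.38e-05) and in Taz KO cells (-0.83, limma adjusted p = 0.0214). Pfkfb2, which sets the level of the phosphofructokinase activator, had 11.3, 13.9 and 15.2 FPKM in double KO, 3.59, 6.70 and 4.63 FPKM in Taz KO and 3.63, 4.77 and 4.54 FPKM in control libraries (log2 fold change of double KO against control 1.54, SE 0.20, limma adjusted p = 0.00138). All double KO libraries were above the other 6. Against Taz KO, 3 rose (Pfkfb2, Pfkfb4, Fbp2) and 3 fell (Pdp2, Pcx, Pck2), where 6.42% of all tested genes were higher and 7.45% lower. Under the block there were 4 rises and 12 falls (16.8% and 25.6% of all). The median of the 26 in double KO against control was -0.19.

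Of 41 other genes of the HIF pathway and hypoxia response 31 were tested. In double KO against control cells 6 rose, among them Hmox1, Bhlhe40, Kdm3a, Hif1an and Narf, and 6 fell (Cited2, Gys1, Tmem45a, Mif, Tceb2, Tceb1). Of all tested genes 12.4% were higher and 12.9% lower. With the block 8 rose and 10 fell (24.2% and 28.1% of all), and against Taz KO 8 rose and 6 fell (16.8% and 25.6% of all). The median log2 fold change of the 31 in double KO against control was -0.02, as over all tested genes. Bhlhe40, a circadian and hypoxia induced repressor, had 58.3, 79.9 and 54.7 FPKM in double KO, 28.7, 33.6 and 18.97 FPKM in Taz KO and 29.7, 22.2 and 11.2 FPKM in control libraries (log2 fold change of double KO against control 1.67, SE 0.34, limma adjusted p = 0.00894). Hmox1, the haem-degrading enzyme, had 46.4, 58.2 and 47.0 FPKM in double KO, 35.3, 31.8 and 32.8 FPKM in Taz KO and 27.6, 23.8 and 26.1 FPKM in control libraries. Both were higher in all double KO libraries than in the other 6, and Bhlhe40 lies on chromosome 6 and Hmox1 on chromosome 8. Cited2, a HIF-induced inhibitor of HIF co-activation, was the only gene of the list called in Taz KO against control (log2 fold change -0.70, SE 0.11, limma adjusted p = 0.0246). Of all tested genes 0.565% were called lower there. The block gave 1 rise and 3 falls in that comparison (7.78% and 4.05% of all). Against Taz KO, Hmox1 and Bhlhe40 were among the genes that rose, and Tmem45a fell.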

How the data were processed

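The authors deposited 1 table of FPKM per gene and library. Per the submitters' processing notes, the tools were TopHat2 2.1.1, DESeq2 and HTSeq 0.6.1 and the build was mm10, with no roles stated. The sources used here give no annotation release, strand setting or filter, so reads of overlapping or antisense genes may be mixed. The libraries were directional and poly(A) selected, per the labels' protocols. Values of all 24621 genes above 0 were whole multiples of 1 read within 0.001, and what 1 read was worth followed median-of-ratios size factors inversely, so columns shared a scale set by the typical gene. Of 8 near-identical copies of these genes in the table none passed 0.342 FPKM.

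Group means of log2(FPKM + 0.5) were estimated over the 9 libraries together, leaving 6 degrees of freedom (4 with the block), with limma 3.58.1 in R 4.3.3, with a variance trend, two-sided tests and adjustment over 11674 genes; the adjusted p-values in the text are from this limma test. The pseudocount understates fold changes of low genes. Replicates are not said to be separate cultures, so p-values measure the spread between libraries, which may be technical; no pair agreed within sampling noise (chi-square of 5.69 to 46.1 per gene). Over the tested genes, correlations between same-numbered libraries of different groups, taken on deviations from group means, were 0.192 to 0.711 (9 pairs), and between differently numbered ones -0.688 to 0.394 (18 pairs). The values, rather than the labels, therefore pair the libraries of numbers 2 and 3 (0.570 to 0.711 within a number). Number 1 was paired less clearly, with 0.192 to 0.423 within the number. Double KO 1 was closer to control 3 (0.274) than to control 1 (0.192). The block and the counts over pairs therefore rest on the titles for number 1. Comparisons with control share the 3 control libraries. Gene positions are from GENCODE M21 on GRCm38, and motifs and figures were made with Python 3.11.15.

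The genes, lists and rules were chosen with earlier results of these data known. Libraries were given for genes called in a comparison, by the number or through the block, for HIF factors and oxygen sensors, and for genes near 0; of other pathway genes those called are named, except 1 that is not reported here. Alternatives covered the pseudocount, filter, scaling, block, variance model, samples in the fit, and limma voom with TMM factors on recovered reads.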

Additional observations from a re-analysis of the deposited data

How the results depend on the processing

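The 8 calls of double KO against control became 2 with no filter on low values (40 genes tested), 21 with the replicate block, and 0, 18 and 1 without number 1, 2 or 3 of every group; leaving out 1 library gave 2 to 12. The 5 calls of double KO against Taz KO became 3 with no filter, 20 with the block, 2 with only these groups in the fit, and 0, 15 and 0 without number 1, 2 or 3; leaving out 1 library gave 2 to 13. Taz KO against control had 0 calls, 2 with the block and 1 without number 2, and 0 in every fit without 1 library. The 20 calls for the replicate number became 7 with no filter and 12 with quantile normalization, and 9 to 25 without 1 library. With the block the share of all tested genes called also moved, from 25.3% to 52.4% against control and from 13.9% to 42.4% against Taz KO. For the other fits that share is not given here, so a change in these genes cannot be told from one over all genes. Fewer samples are fitted when libraries are left out, and more genes are adjusted for with no filter. The cause of the changed counts was not tested for any setting. The genes called with or without the block gave 43 results (a gene in a comparison). Of their 987 recomputed values 819 kept direction and side of the threshold, 93 lost and 74 gained a call, and 1 reversed: Gapdh in double KO against control, 0.0173 with quantile normalization. Other sign changes under another scaling were all of values not called with or without the block. The replicate block ended none of the calls, and among the 39 genes it changed no call other than those named; in the other pathway lists it added those counted in the text. Rescaling columns to a common total moved the median log2 fold change of all genes by 0.07 at most. For Car9, 7 to 29 reads a library limit what can be seen.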

Other observations

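The pentose phosphate pathway branches off glycolysis after the hexokinase step and supplies NADPH and ribose. All 7 listed genes were tested. In double KO against control cells 2 fell, both of the non-oxidative branch, where 12.9% of all tested genes were lower. With the replicate block 3 fell and 1 rose, where 28.1% of all tested genes were lower and 24.2% higher. The genes added were of the oxidative branch: G6pdx, which fell (log2 fold change -0.29, limma adjusted p = 0.0108 with the block and 0.235 without), and Pgd, which rose (0.26, limma adjusted p = 0.0111 with the block and 0.364 without). Transketolase, Tkt, had 69.2, 59.4 and 61.3 FPKM in double KO, 109.9, 87.9 and 98.04 FPKM in Taz KO and 94.9, 86.9 and 91.0 FPKM in control libraries (log2 fold change of double KO against control -0.52, SE 0.10, limma adjusted p = 0.00664). Transaldolase, Taldo1, had 90.5, 63.5 and 77.2 FPKM in double KO, 131, 93.7 and 121 FPKM in Taz KO and 127, 117 and 127 FPKM in control libraries (log2 fold change -0.69, SE 0.15, limma adjusted p = 0.0125). For both genes every double KO library was below every other library. Pgls, a lactonase of the oxidative branch on chromosome 8, had 10.1, 9.26 and 9.57 FPKM in double KO, 11.9, 13.0 and 12.2 FPKM in Taz KO and 8.67, 8.93 and 8.03 FPKM in control libraries, and it rose in Taz KO against control (log2 fold change 0.51, SE 0.07, limma adjusted p = 0.0148). Number 2 was lower than the other numbers for 6 of the 7 genes, where 30.4% of all tested genes were called lower.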
